A study of Oryza sativa with 12 samples.

Results

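The auxin response genes of rice described here are the Aux/IAA, ARF, PIN and GH3 families, measured on Affymetrix arrays in flag leaves and panicles. Members were chosen by name alone: a gene counted where its RefSeq symbol or synonym, after an optional Os, was IAA, ARF, PIN or GH3 followed by a number. RefSeq held 69 such genes, and 57 of them had a probe set on the array, among 17905 genes that did. They were 26 of 28 Aux/IAA genes, 17 of 23 ARF genes, 5 of 9 PIN genes and all 9 GH3 genes. ARF5, ARF6, ARF8, ARF19, ARF21, ARF25, PIN1a, PIN1b, PIN1c, PIN5b, IAA11 and IAA29 have no probe set listed and were not analysed here. The numbering of these families differs between naming systems, so that the gene called ARF12 here is also listed as ARF8, and ARF4 also as ARF2. The measured gene called PIN5c here, on chromosome 8, is also listed as PIN5b and PIN4. The gene called PIN5b here, on chromosome 9 and without a probe set, is also listed as PIN5c.

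The study compared IL50-7, which the series title describes as a high yielding introgression line, with KMR3. Total RNA came from fully emerged young panicles and from flag leaves of field-grown plants, and the labels give neither an age nor a treatment. The groups were IL50-7 panicle, IL50-7 flag leaf, KMR3 panicle and KMR3 flag leaf, each with 3 arrays labelled as biological replicates, 12 arrays in all. No label says whether replicates came from separate plants, so p-values measure the spread between these samples, and nothing in the labels pairs replicates across groups.

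Auxin acts by bridging Aux/IAA proteins to the F-box receptors of the TIR1/AFB group, which marks the Aux/IAA proteins for destruction. Aux/IAA proteins otherwise hold ARF transcription factors silent with the help of TOPLESS-type co-repressors, and released ARF proteins switch genes on or, in some subfamilies, off. Many Aux/IAA and GH3 genes are themselves early targets of auxin. GH3 enzymes attach amino acids to auxin or jasmonate, and PIN proteins carry auxin across membranes, so both act on how much free hormone a cell holds.

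All values are log2 intensities after quantile normalisation of the 12 arrays, on a scale where 4.01 marks the background (95% of the values of 23 control probe sets, whose transcripts were not added, lie below it) and 0.26 is the floor set for the lowest values. A level belongs to its probe set and cannot be set against that of another gene. Each gene was read by its brightest probe set. A gene was called where limma gave an adjusted p (Benjamini-Hochberg over all 34316 probe sets tested) under 0.05. Of the 57 genes, 53 passed the filter on dim probe sets. In organs made of many cell types, fewer cells of a type and less RNA per cell cannot be told apart.

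The arrays differed in brightness, with trimmed mean intensities of 161 to 296 in panicles and 125 to 199 in leaves. All 13 floral organ markers were called higher in the panicle than in the leaf of IL50-7 and 12 of 13 in KMR3. Their mean level was 9.86 to 10.1 in panicles and 3.42 to 4.35 in leaves. Of 6 leaf photosynthesis markers, all 6 were lower in the panicle in IL50-7 and 5 in KMR3, of which 3 and 4 were called. Of all probe sets, 45.6% were called in either direction in IL50-7 and 47.5% in KMR3. The photosynthesis markers had a mean level of 10.09 to 10.87 in panicles and 12 to 12.41 in leaves. The ratio of the 3′ to the 5′ probe set of GAPDH, a sign of RNA integrity, was 7.68 to 23.3 in panicles and 2.54 to 6.32 in leaves. A second GAPDH pair gave overlapping ranges of 0.93 to 20 and 1.52 to 12.4, and the part of RNA quality in the organ differences was not tested.

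Of the panicle arrays, 2 went against their line labels. Over 31 probe sets that were on in the leaves of one line and off in the other (leaf means at least 4 log2 units apart, panicle values spread as widely), the array labelled KMR3 panicle replicate 3 was nearer to the IL50-7 leaf level for all 31. The array labelled IL50-7 panicle replicate 2 was nearer to the KMR3 leaf level for 28 of the 31. The other IL50-7 panicles were nearer to IL50-7 leaves for 31 each, and the other KMR3 panicles to KMR3 leaves for 28 and 29. Arrays were kept under their labels. Counts are given with and without these 2 arrays, and the organ comparisons draw on both lines.

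The auxin response genes stood mostly higher in the panicle than in the leaf. In IL50-7, 36 of the 53 tested genes were called, 29 higher and 7 lower, where 45.6% of all probe sets were called, 22.4% higher and 23.2% lower. In KMR3, 30 of 53 were called, 24 higher and 6 lower, against 47.5% of all probe sets, 22.5% higher and 25% lower. The members' shares were 67.9% in IL50-7 and 56.6% in KMR3. Members were read by their brightest probe set, and the share of all probe sets called rose with the brightness filter. With that filter at the 60th percentile, 31 of 44 members were called in IL50-7 and 29 of 44 in KMR3. Of all probe sets, 59.1% and 60.3% were called there. The values of panicle and leaf did not overlap for 34 members in IL50-7 and 37 in KMR3, where this held for 54.0% and 59.4% of all probe sets. Their median panicle-minus-leaf difference was 0.99 in IL50-7 and 0.80 in KMR3, beside medians of -0.06 and -0.11 over all probe sets tested. On the scale as deposited the KMR3 split was 29 higher and 3 lower, where 38.1% of all probe sets were called. There the median of all probe sets moved to 0.31.

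Without the 2 arrays in doubt, 33 genes were called in IL50-7, 26 of them higher, where 39.9% of all probe sets were called. In KMR3 27 were called, 21 of them higher, where 41.5% of all probe sets were. Across both lines as labelled, 23 genes were higher in the panicle in both, 6 were lower in both and none moved in opposite directions, where 18.5% of all probe sets were higher in both lines and 19.8% lower. The 2 organ comparisons share no array. A further 7 genes were called in IL50-7 only, 1 in KMR3 only and 16 in neither line. Such a count is not a test of the lines against each other. The line difference in panicles minus that in leaves, tested for each gene, was called for none, with a median standard error of 0.48 and the highest at 1.76.

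**Figure D1:**
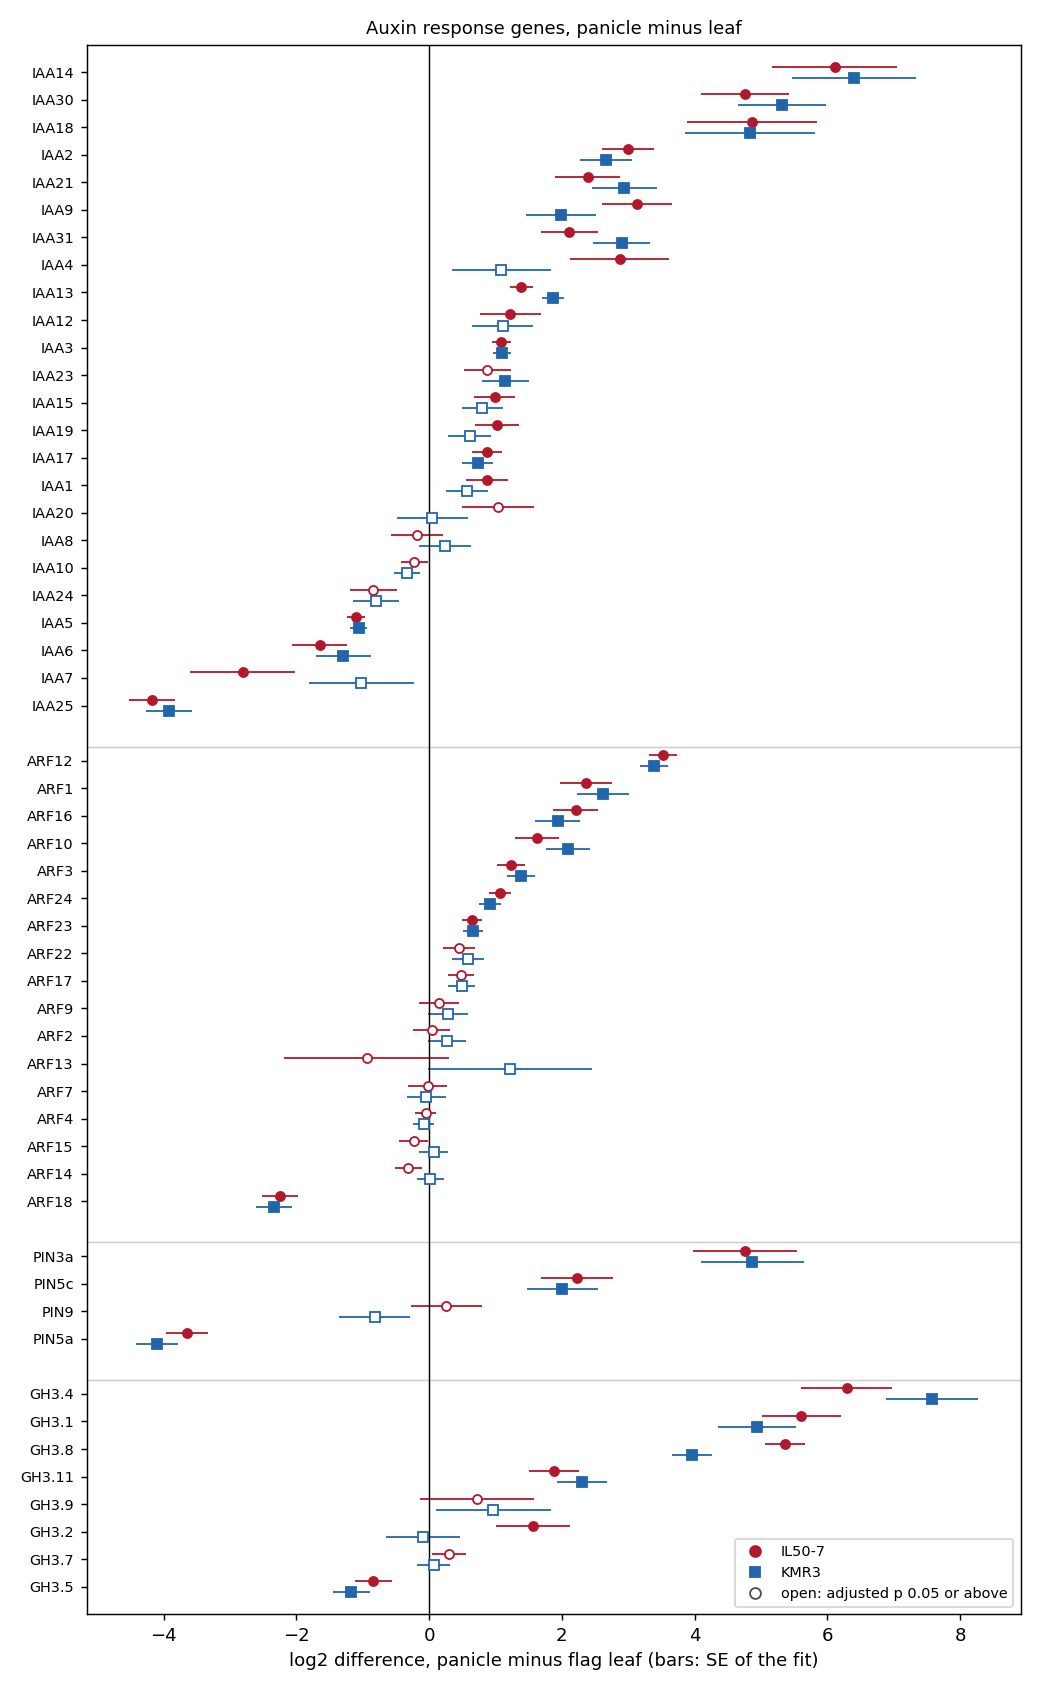
Panicle minus flag leaf difference (log2, x axis) of the 53 tested auxin response genes, grouped as Aux/IAA, ARF, PIN and GH3 and ordered by size, with IL50-7 as circles above KMR3 as squares. Bars are the standard error of the fit and open symbols had an adjusted p of 0.05 or above; GH3.8 lay at 5.36 and 3.96, while IAA25 lay at -4.17 and -3.92. Where leaf levels were under background, as for GH3.4 and IAA14, the plotted difference is between fitted means and is not a measured fold.

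Among the Aux/IAA repressors, 10 of 24 tested genes were higher in the panicle of both lines: IAA2, IAA3, IAA9, IAA13, IAA14, IAA17, IAA18, IAA21, IAA30 and IAA31. IAA5, IAA6 and IAA25 were lower in both. IAA14 read 8.10, 6.76 and 7.66 on the IL50-7 panicle arrays, against 3.68, 0.26 and 0.26 on the IL50-7 leaf arrays. In KMR3 it read 7.39, 7.00 and 8.09 in panicles, against 2.78, 0.26 and 0.26 in leaves. Every panicle array was above background and every leaf array below it. The panicle level was therefore at least 11.3-fold higher in IL50-7 and at least 11.2-fold higher in KMR3 (limma, adjusted p = 0.000308 and 0.000222).

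IAA30, which lies next to IAA31 on chromosome 12, read 11.02, 10.56 and 10.53 in IL50-7 panicles, against 7.66, 4.78 and 5.37 in IL50-7 leaves. Its KMR3 levels were 10.92, 10.65 and 11.12 in panicles, against 4.43, 6.48 and 5.80 in leaves. The panicle arrays lay within 1 log2 unit of each other while the leaf arrays were spread over 3, and no leaf value reached a panicle value. The difference was 4.76 ± 0.66 (SE) in IL50-7, 27.2-fold, and 5.32 ± 0.66 in KMR3, 40.1-fold (limma, adjusted p = 0.000146 and 6.66e-05). The neighbouring IAA31 was 4.32-fold higher in the IL50-7 panicle and 7.46-fold higher in that of KMR3 (limma, adjusted p = 0.00213 and 0.00025).

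IAA18 was at 7.65, 6.91 and 7.54 in IL50-7 panicles, against 3.66, 3.51 and 0.38 in IL50-7 leaves. On KMR3 arrays it was at 7.13, 6.82 and 7.83 in panicles, against 0.26, 4.01 and 3.02 in leaves. Leaf signal touched background on 1 KMR3 array and stayed below it on the rest. In IL50-7 the panicle was at least 10.3-fold higher (limma, adjusted p = 0.00194), and in KMR3 the difference was 4.83 ± 0.98 (adjusted p = 0.00195), with no fold given because of that array.

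IAA2 gave 11.58, 11.43 and 11.83 in IL50-7 panicles, against 9.46, 7.63 and 8.74 in IL50-7 leaves. It gave 11.70, 11.47 and 11.54 in KMR3 panicles, against 9.08, 9.37 and 8.28 in KMR3 leaves. Here leaf and panicle were both well above background and did not overlap. The panicle was 7.99-fold higher in IL50-7 and 6.33-fold higher in KMR3 (limma, adjusted p = 0.000101 and 0.000235).

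IAA25 ran the other way, and its drop was the largest of any member in IL50-7. IL50-7 panicles had 4.75, 5.74 and 5.20, against 8.75, 9.77 and 9.67 in IL50-7 leaves. KMR3 panicles had 5.32, 5.58 and 4.94, against 8.98, 8.99 and 9.66 in KMR3 leaves. All 6 leaf arrays stood above all 6 panicle arrays, and the panicle was lower by 18-fold in IL50-7 and 15.2-fold in KMR3 (limma, adjusted p = 3.62e-06 and 5.97e-06). IAA6, for which a role in tiller outgrowth and drought is known in rice, was 3.15-fold lower in the IL50-7 panicle and 2.44-fold lower in the KMR3 panicle. IAA5 was lower by 2.15-fold in IL50-7 and 2.09-fold in KMR3.

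Of the other Aux/IAA genes called in both lines, IAA21 was 5.26-fold higher in the IL50-7 panicle and 7.69-fold higher in the KMR3 panicle. IAA13, whose stabilised form blocks lateral root formation in rice, was 2.62-fold and 3.66-fold higher. IAA3 was higher by 2.13-fold in IL50-7 and 2.14-fold in KMR3, and IAA17 by 1.82-fold and 1.66-fold. IAA9 differed by 3.13 ± 0.53 in IL50-7, where only 1 leaf array was above background, and by 1.99 ± 0.53 in KMR3. The probe set of IAA17 is of a type that may match further transcripts of the same family.

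IAA1, IAA4, IAA12, IAA15 and IAA19 were called higher in the IL50-7 panicle alone and IAA7 lower, while IAA23, known from root tip maintenance, was called higher in the KMR3 panicle alone. Each of these 7 had the same sign in the other line, and IAA15 just missed there (0.80 ± 0.31; limma, adjusted p = 0.051). IAA8, IAA10, IAA20 and IAA24 were called in neither line. IAA10 and IAA24 had negative differences in both lines, of -0.22 and -0.33 for IAA10 and of -0.84 and -0.80 for IAA24. Second probe sets of IAA1 and IAA23 were not called in either line, and that of IAA3 was called in KMR3 only (1.41; limma, adjusted p = 0.0118).

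**Figure D2:**
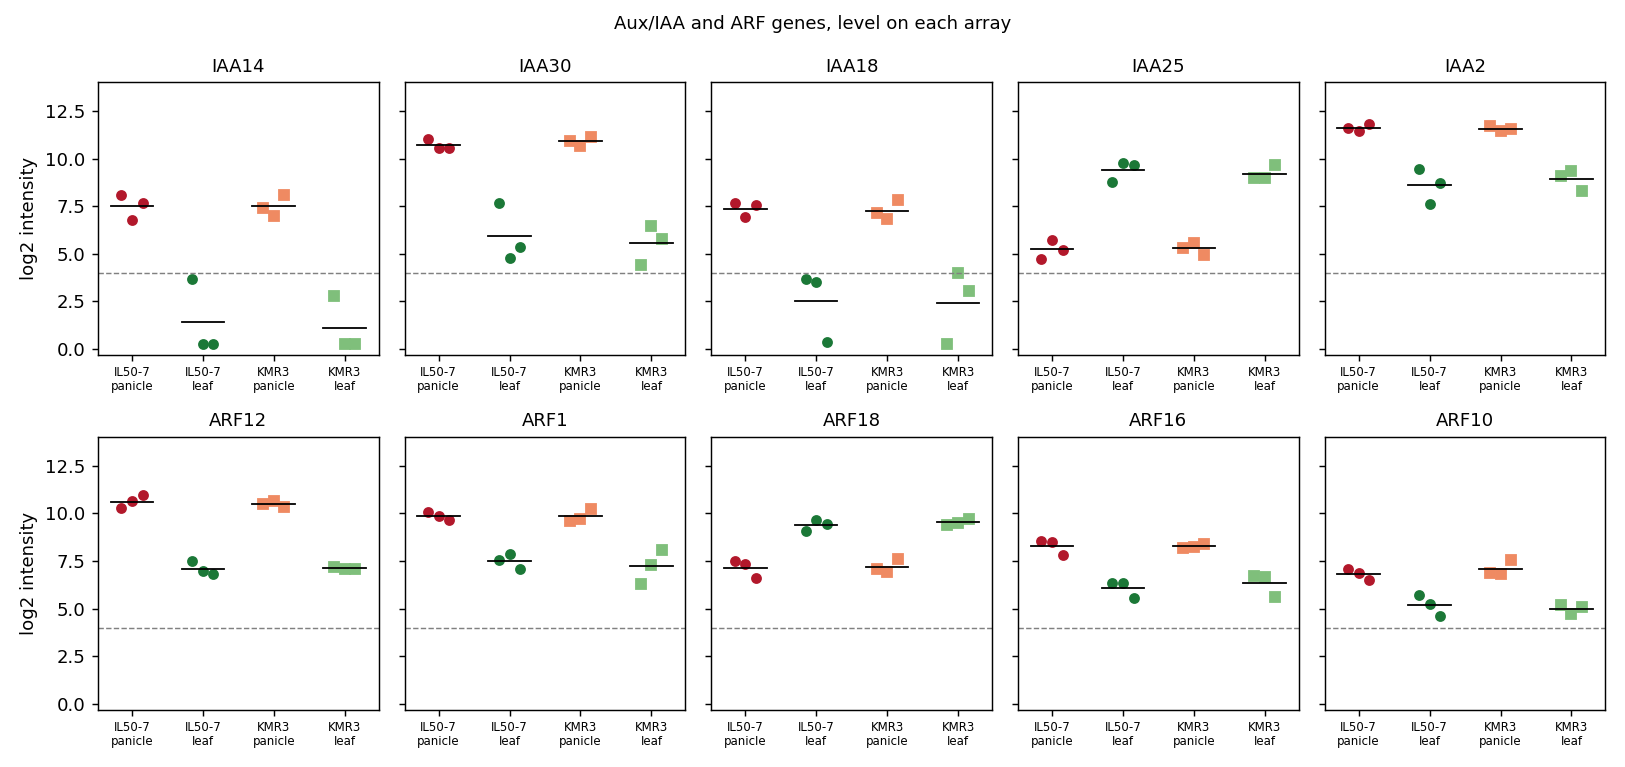
Level of 5 Aux/IAA and 5 ARF genes on each array (log2 intensity, y axis) in IL50-7 panicle, IL50-7 leaf, KMR3 panicle and KMR3 leaf. Points are arrays, black lines are group means and the dashed line is the background of 4.01; IAA25 and ARF18 are low in panicles, and the other 8 are high there.

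The ARF transcription factors had a median absolute organ difference of 0.65 in IL50-7 and 0.66 in KMR3, where Aux/IAA genes had 1.30 and 1.10 and all probe sets 0.90 and 0.95. The same 8 of 17 were called in both lines: ARF1, ARF3, ARF10, ARF12, ARF16, ARF23 and ARF24 higher in the panicle, and ARF18 lower. That is 47.1% of the ARF genes in each line, close to the 45.6% and 47.5% of all probe sets. No ARF gene was called in 1 line alone.

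ARF12, an activator-type ARF with a known role in phosphate balance and root growth, had the smallest adjusted p among the ARF genes. It read 10.29, 10.63 and 10.95 in IL50-7 panicles, against 7.49, 7.00 and 6.82 in IL50-7 leaves. It read 10.52, 10.65 and 10.35 in KMR3 panicles, against 7.21, 7.07 and 7.07 in KMR3 leaves. The organs were separated by nearly 3 log2 units at their closest arrays. The panicle was 11.5-fold higher in IL50-7 and 10.5-fold higher in KMR3 (limma, adjusted p = 4.01e-07 and 5.7e-07).

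ARF1 stood at 10.10, 9.84 and 9.64 in IL50-7 panicles, against 7.57, 7.85 and 7.08 in IL50-7 leaves. KMR3 arrays held 9.59, 9.69 and 10.24 in panicles, against 6.29, 7.29 and 8.10 in leaves. KMR3 leaves were the most scattered of the 4 groups, yet all lay below the panicles. The panicle was 5.14-fold higher in IL50-7 and 6.13-fold higher in KMR3 (limma, adjusted p = 0.000498 and 0.000245).

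ARF16, also activator-type and linked to phosphate and auxin responses in roots, gave 8.55, 8.52 and 7.82 in IL50-7 panicles, against 6.33, 6.37 and 5.55 in IL50-7 leaves. In KMR3 the levels were 8.16, 8.26 and 8.39 in panicles, against 6.72, 6.65 and 5.62 in leaves. Replicate 3 was the dimmest leaf array in each line, and the organs did not overlap. The panicle was 4.64-fold higher in IL50-7 and 3.84-fold higher in KMR3 (limma, adjusted p = 0.00029 and 0.00071). ARF17, the remaining activator-type gene measured, differed by 0.48 ± 0.20 in IL50-7 and 0.49 ± 0.20 in KMR3 and was not called (limma, adjusted p = 0.0705 and 0.0603).

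ARF10, ARF18 and ARF22 are known targets of the microRNA miR160, and their organ differences did not share a sign. ARF10 had 7.06, 6.87 and 6.49 in IL50-7 panicles, against 5.73, 5.22 and 4.64 in IL50-7 leaves. It had 6.89, 6.83 and 7.55 in KMR3 panicles, against 5.18, 4.73 and 5.10 in KMR3 leaves. All panicles were above all leaves, by 3.06-fold in IL50-7 and 4.26-fold in KMR3 (limma, adjusted p = 0.00189 and 0.000332).

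ARF18 gave 7.50, 7.37 and 6.60 in IL50-7 panicles, against 9.07, 9.65 and 9.47 in IL50-7 leaves. KMR3 panicles gave 7.10, 6.93 and 7.59, against 9.39, 9.50 and 9.71 in KMR3 leaves. Leaves were uniformly the brighter organ. The panicle was 4.73-fold lower in IL50-7 and 5.02-fold lower in KMR3 (limma, adjusted p = 4.98e-05 and 3.89e-05). ARF22 differed by 0.45 ± 0.24 in IL50-7 and 0.58 ± 0.24 in KMR3 and was not called in either line. This grouping of ARF genes was made after their values were seen.

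Of the 4 genes related to Arabidopsis ETTIN, a factor that patterns the gynoecium, ARF3 was called higher in the panicle, by 2.35-fold in IL50-7 and 2.61-fold in KMR3. ARF2, ARF14 and ARF15 were not called, with differences between -0.31 and 0.27. ARF24 was 2.10-fold higher in the IL50-7 panicle and 1.89-fold higher in the KMR3 panicle. ARF23, known to act with ARF24 on an actin-organising formin gene, was 1.57-fold and 1.58-fold higher. A second probe set of ARF23 gave -0.28 in IL50-7 and -0.12 in KMR3 and was not called, so the probe sets of this gene disagree. ARF4, ARF7, ARF9 and ARF13 were called in neither line, although a dimmer probe set of ARF4 was lower in the IL50-7 panicle (-0.55; limma, adjusted p = 0.00991).

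Auxin transport was represented by 4 tested PIN genes. PIN3a, also named PIN10a, encodes an efflux carrier known in rice for a part in drought response. Its levels were 8.56, 8.00 and 7.32 in IL50-7 panicles, against 5.08, 2.50 and 2.04 in IL50-7 leaves. KMR3 levels were 7.80, 7.88 and 8.73 in panicles, against 2.15, 4.56 and 3.08 in leaves. In each line 1 leaf array was above background and the others did not. The difference was 4.76 ± 0.78 in IL50-7 and 4.87 ± 0.78 in KMR3 (limma, adjusted p = 0.000489 and 0.000411). A second probe set gave 3.72 and 4.99 and was called in both lines; the brightest one is of a type that may match further transcripts.

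PIN5a and PIN5c resemble Arabidopsis PIN5, which sits in the endoplasmic reticulum and acts inside the cell, and they differed in opposite directions. PIN5a had 6.46, 7.05 and 7.38 in IL50-7 panicles, against 9.95, 10.87 and 11.00 in IL50-7 leaves. It had 7.03, 7.00 and 6.28 in KMR3 panicles, against 10.73, 10.87 and 11.03 in KMR3 leaves. Panicles were lower on every array, by 12.5-fold in IL50-7 and 17.2-fold in KMR3 (limma, adjusted p = 5.48e-06 and 2.58e-06).

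PIN5c was at 4.36, 5.41 and 5.39 in IL50-7 panicles, against 2.47, 2.90 and 3.09 in IL50-7 leaves. In KMR3 it was at 6.19, 5.40 and 4.46 in panicles, against 3.92, 3.54 and 2.55 in leaves. All 6 leaf arrays were below background. The panicle was at least 2.06-fold higher in IL50-7 and at least 2.53-fold higher in KMR3 (limma, adjusted p = 0.00569 and 0.00982). PIN9 stayed near background in all groups and was not called.

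Of the GH3 genes, GH3.1, GH3.4, GH3.8 and GH3.11 were higher in the panicle of both lines and GH3.5 was lower in both. GH3.4 read 10.01, 9.62 and 10.11 in IL50-7 panicles, against 3.91, 4.40 and 2.57 in IL50-7 leaves. In KMR3 it read 9.78, 9.60 and 9.94 in panicles, against 3.24, 0.26 and 3.07 in leaves. Leaf signal was at or below background on 5 of 6 arrays, the exception being IL50-7 replicate 2. In KMR3 the panicle was at least 54.3-fold higher (limma, adjusted p = 7.8e-06). In IL50-7 it was called higher as well (limma, adjusted p = 2.85e-05), with no fold given because 1 leaf array was above background.

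GH3.1 showed 7.93, 7.62 and 8.04 in IL50-7 panicles, against 1.87, 3.9 and 0.99 in IL50-7 leaves. KMR3 arrays showed 7.82, 7.49 and 8.05 in panicles, against 2.42, 3.13 and 2.99 in leaves. No leaf array was above background. The panicle was at least 14.5-fold higher in IL50-7 and at least 13.7-fold higher in KMR3 (limma, adjusted p = 2.03e-05 and 5.09e-05).

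GH3.8, an enzyme that joins auxin to aspartate and is known to act downstream of the floral regulators MADS1 and MADS6, had 9.91, 10.10 and 10.45 in IL50-7 panicles, against 4.78, 4.77 and 4.82 in IL50-7 leaves. It had 10.04, 10.12 and 10.09 in KMR3 panicles, against 6.69, 6.38 and 5.31 in KMR3 leaves. Panicles of both lines were alike to within 1 log2 unit, while KMR3 leaves all exceeded IL50-7 leaves. The panicle was 41.2-fold higher in IL50-7 and 15.5-fold higher in KMR3 (limma, adjusted p = 2.72e-07 and 2.18e-06).

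GH3.11 had 6.13, 5.85 and 6.37 in IL50-7 panicles, against 4.32, 4.83 and 3.57 in IL50-7 leaves. Its KMR3 values were 6.38, 5.88 and 5.67 in panicles, against 3.26, 3.77 and 4.0 in leaves. Panicles exceeded leaves on all arrays, and KMR3 leaves were all below background. The panicle was 3.67-fold higher in IL50-7 and at least 3.92-fold higher in KMR3 (limma, adjusted p = 0.00195 and 0.0005), from a probe set that may match further transcripts.

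GH3.5, also known as JAR1, differs in role, since it makes the active jasmonate conjugate jasmonoyl-isoleucine. It gave 9.58, 8.48 and 9.17 in IL50-7 panicles, against 9.88, 9.88 and 9.99 in IL50-7 leaves. KMR3 panicles gave 8.69, 8.59 and 9.47, against 10.19, 9.99 and 10.09 in KMR3 leaves. Leaves were tightly grouped and panicles spread over about 1 log2 unit. The panicle was 1.79-fold lower in IL50-7 and 2.26-fold lower in KMR3 (limma, adjusted p = 0.0293 and 0.00503). Both calls were lost on the deposited scale, with -0.70 in each line (limma, adjusted p = 0.206 and 0.194), and with equal array medians. The IL50-7 call was lost under 9 of 25 alternatives in all. These included leaving out IL50-7 leaf replicate 1, 2 or 3 (limma, adjusted p = 0.0506, 0.0641 and 0.0804) and panicle replicate 3 (adjusted p = 0.0521). Without IL50-7 panicle replicate 2 the difference was -0.54 (limma, adjusted p = 0.118), against -0.84 with it.

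GH3.2, GH3.7 and GH3.9 make up the rest of the tested GH3 genes. GH3.2 was called higher in the IL50-7 panicle (1.57 ± 0.56; limma, adjusted p = 0.0398), where panicle and leaf values overlapped, and differed by -0.09 ± 0.56 in KMR3. GH3.7 and GH3.9 were not called.

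**Figure D3:**
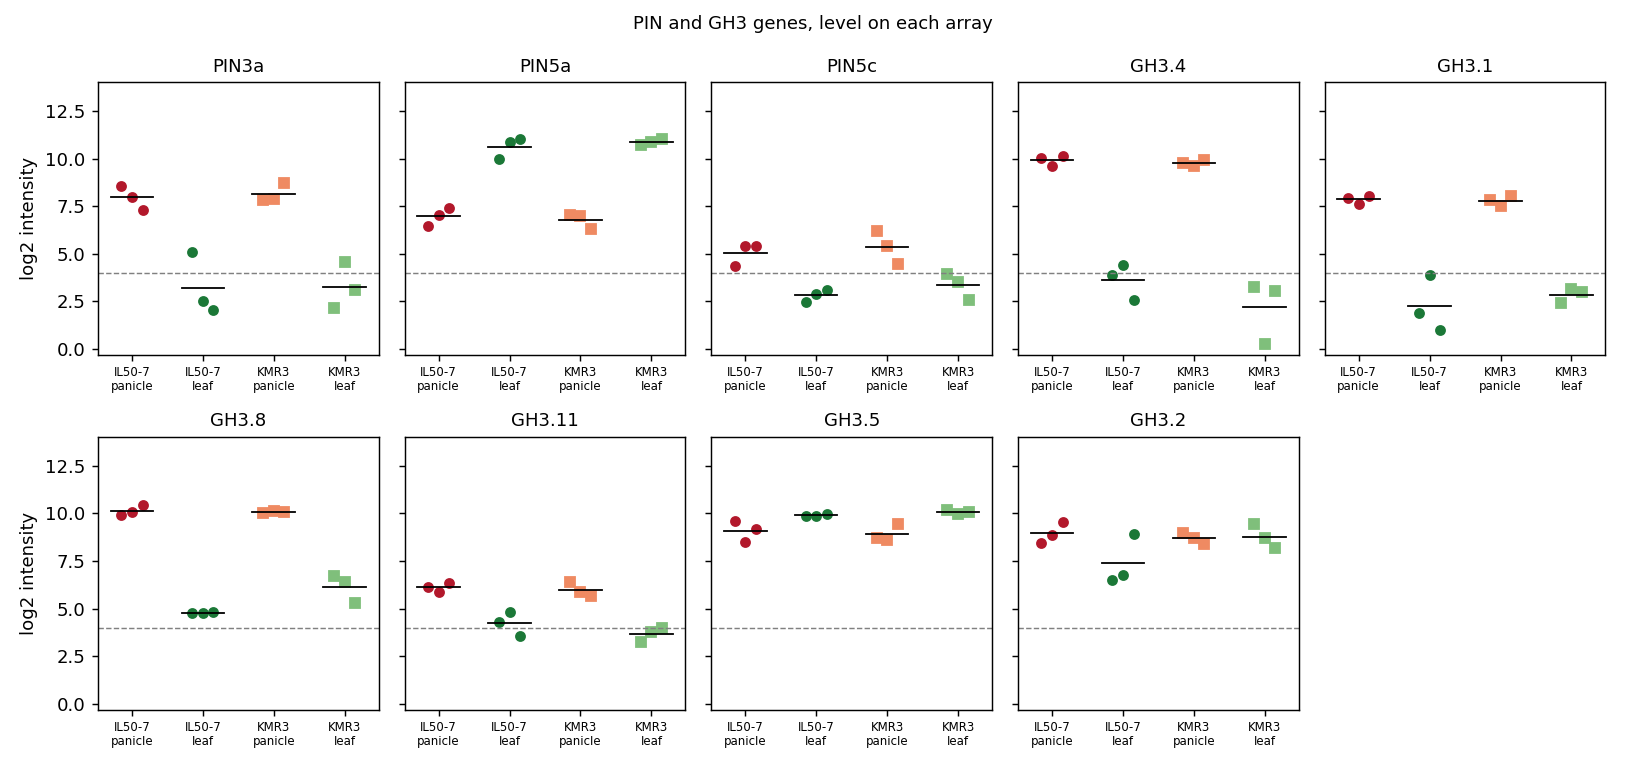
Level of 3 PIN and 6 GH3 genes on each array (log2 intensity, y axis) in IL50-7 panicle, IL50-7 leaf, KMR3 panicle and KMR3 leaf. Points are arrays, black lines are group means and the dashed line is the background of 4.01; GH3.8 has panicle means of 10.15 in IL50-7 and 10.08 in KMR3, and leaf means of 4.79 in IL50-7 and 6.13 in KMR3.

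The comparison of IL50-7 with KMR3 addresses what the introgression line expresses differently. In flag leaves no auxin response gene was called in limma, where 0.0729% of all probe sets (25) were. An unadjusted p under 0.05 was seen for 3 of the 53, IAA4, GH3.2 and GH3.8, and for 4.85% of all probe sets. The values of IL50-7 and KMR3 leaves did not overlap for 3 members, where 9.17% of all probe sets had no overlap. Of the 53 genes, 42 had a line difference within 0.5 log2 units of 0, and the median standard error was 0.34, so differences of this size were not detectable with 3 arrays a group.

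GH3.8 had the smallest p of the members in leaves. Its mean was 4.79 ± 0.03 in IL50-7 leaves and 6.13 ± 0.73 in KMR3 leaves (SD, n = 3 each; values above), a difference of -1.34 ± 0.30 (SE; limma, unadjusted p = 0.000965, adjusted p = 0.36). KMR3 leaves were higher on all 3 arrays. Floral organ markers were mixed: 8 of 13 were lower in IL50-7 leaves and 5 higher, with a median difference of -0.22. Of these, 2 were called lower, MADS3 and MADS6, and none higher, where 0.0729% of all probe sets were called. The mean level over the list was 3.42 to 3.88 in IL50-7 leaves and 3.98 to 4.35 in KMR3 leaves. MADS3 was 4.99-fold lower (limma, adjusted p = 0.0267). MADS6 was under background on all 6 leaf arrays, with means of 0.57 in IL50-7 and 2.97 in KMR3 (limma, adjusted p = 0.0203). The meristem gene OSH1 was under it on all 6 as well, with means of 0.73 in IL50-7 and 2.69 in KMR3 (limma, adjusted p = 0.0829). OSH71, the other meristem marker on the array, went the opposite way. It was higher in IL50-7 leaves by 0.86 ± 0.30, without overlap (limma, unadjusted p = 0.0137, adjusted p = 0.799). The part of these markers in the GH3.8 difference was not tested. Without KMR3 leaf replicate 3, whose level of 5.31 was nearest to IL50-7, the difference was -1.74 with an adjusted p of 0.0174 in limma. Over all alternatives the adjusted p ran between 0.0174 and 0.918.

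GH3.2, another auxin-conjugating enzyme, read 6.52, 6.76 and 8.90 in IL50-7 leaves, against 9.44, 8.73 and 8.17 in KMR3 leaves. IL50-7 replicate 3 lay among the KMR3 arrays, so the groups overlapped. The difference was -1.38 ± 0.56 (limma, unadjusted p = 0.0311, adjusted p = 0.956), and -2.14 without IL50-7 replicate 3 (limma, adjusted p = 0.196). IAA4 had leaf means under background in both lines, 2.30 in IL50-7 and 3.99 in KMR3, so no fold is given.

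In panicles no member was called and none had an unadjusted p under 0.05 in limma, where no probe set of the whole array was called (0.00%) and 3.29% had an unadjusted p under 0.05. No member had line groups without overlap, against 9.22% of all probe sets. Without the 2 arrays that went against their labels, 125 probe sets were called between the lines in panicles (0.364%), and again no auxin response gene was among them. Within 0.5 log2 units of 0 lay 48 of the 53 differences, and the median standard error was 0.34.

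The members with the smallest p in panicles were IAA7 and IAA8. IAA7 read 4.17, 3.92 and 0.39 in IL50-7 panicles, against 4.23, 4.83 and 4.04 in KMR3 panicles. IL50-7 replicate 3 stood far below the other 5 arrays. The difference was -1.54 ± 0.79 (limma, unadjusted p = 0.0782, adjusted p = 1), and -0.32 without that array. IAA8 read 4.89, 5.17 and 4.15 in IL50-7 panicles, against 5.40, 5.12 and 5.19 in KMR3 panicles, and the groups overlapped. The IAA8 difference was -0.50 ± 0.39 (limma, unadjusted p = 0.22, adjusted p = 1), and -0.21 without IL50-7 replicate 3. Without the 2 arrays in doubt the differences were -2.25 for IAA7 and -0.74 for IAA8 (limma, adjusted p = 0.576 and 0.842).

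The line difference in panicles minus that in leaves was called for no member, where 0.0291% of all probe sets (10) were called. GH3.8 alone had an unadjusted p under 0.05 (1.41 ± 0.43; limma, unadjusted p = 0.00691, adjusted p = 1). GH3.2 followed with 1.66 ± 0.79 (limma, adjusted p = 1).

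**Figure D4:**
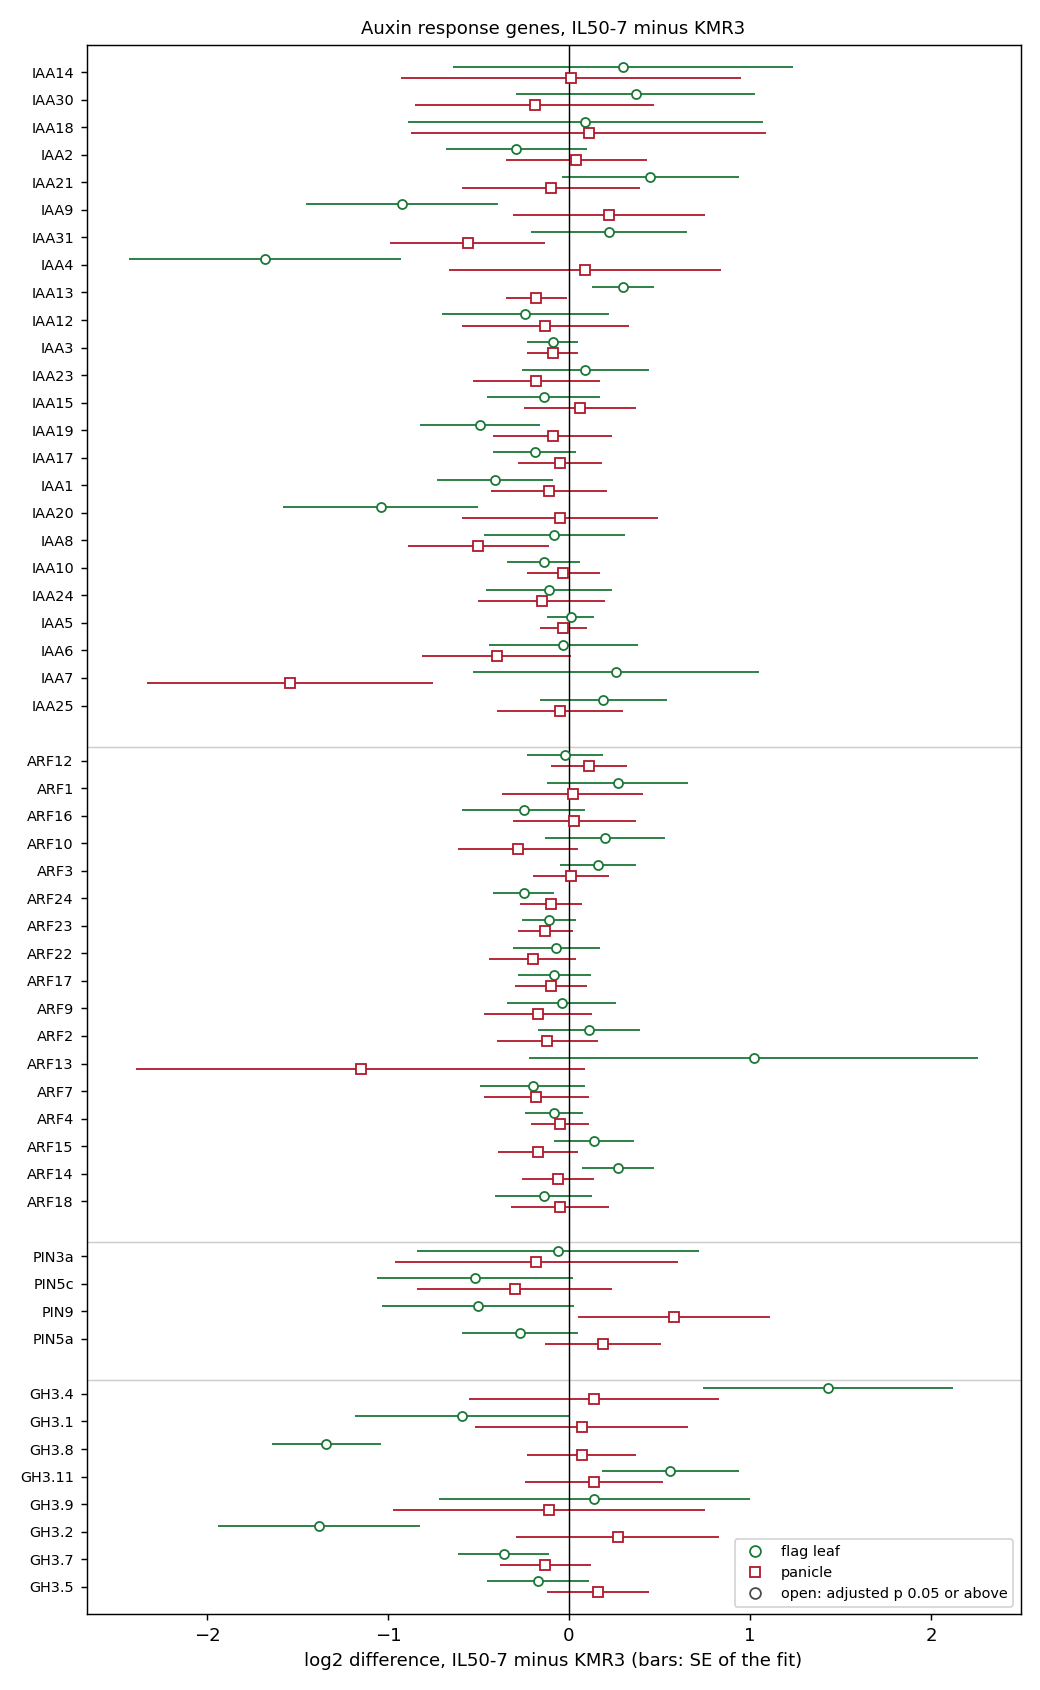
IL50-7 minus KMR3 difference (log2, x axis) of the same 53 genes in flag leaves (circles) and panicles (squares), in the order of the plot of organ differences. Bars are the standard error of the fit and all symbols are open because no adjusted p was under 0.05; GH3.8 lies at -1.34 in leaves.

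Within the panicle, a pair of arrays held the high values of many members. The array labelled KMR3 panicle replicate 3 and IL50-7 panicle replicate 1 were the 2 brightest of the 6 panicle arrays for 28 of the 53 genes, or 52.8%, where this was so for 21.8% of all probe sets. No other pair was the brightest for more than 6 members. The 28 included 14 Aux/IAA genes, 10 ARF genes, PIN3a, PIN9, GH3.5 and GH3.7. The same pair was the dimmest for 7 members, ARF3, ARF4, ARF12, IAA25, PIN5a, PIN5c and GH3.2, or 13.2%, where it was so for 18.6% of all probe sets.

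ARF7 shows the pattern, with 9.21 on the array labelled KMR3 panicle replicate 3 and 9.21 on IL50-7 panicle replicate 1. The other panicles had 8.45 and 8.17 in IL50-7 and 8.73 and 8.42 in KMR3. GH3.5 was at 9.47 and 9.58 on that pair. The correlation between these 2 arrays over all probe sets tested was 0.967, the highest between arrays of an organ labelled as different lines. By the 31 probe sets that set the lines apart, both arrays were nearer to IL50-7 leaves for all 31. They also had the highest mean level of 9 anther, tapetum and pollen markers, 9.93 and 9.80, against 7.07 to 8.99 on the other panicle arrays. Within that list PTC1 went the other way and was lowest on this pair, at 4.14 and 3.61. The pair also had the lowest panicle means of leaf photosynthesis markers (10.20 and 10.09) and of meristem markers (9.73 on each). The part of anther or other tissue content in these levels was not tested, and the arrays were not compared as groups. These counts describe 6 arrays and carry no test.

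**Figure D5:**
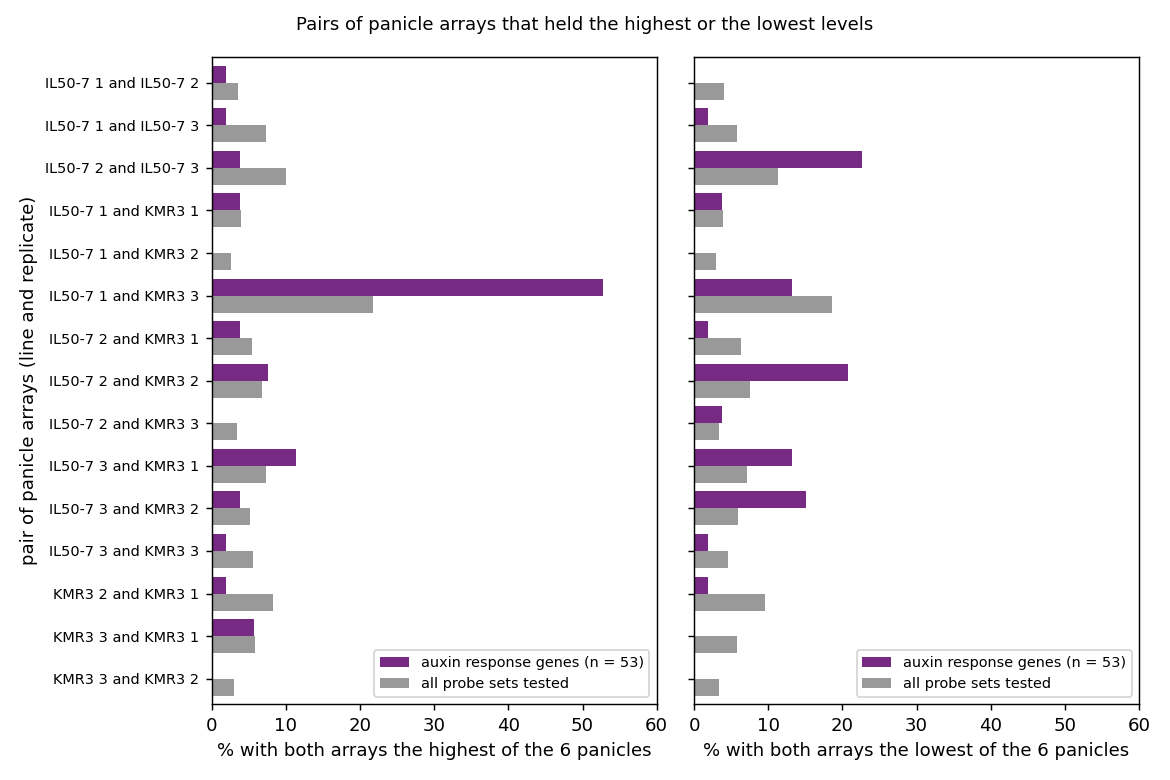
Share of the 53 auxin response genes (purple) and of all probe sets tested (grey) for which both arrays of a pair were the brightest (left) or the dimmest (right) of the 6 panicle arrays, in %, for each of the 15 pairs. IL50-7 replicate 1 with KMR3 replicate 3 holds 52.8% of the genes on the left.

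Among leaves, IL50-7 replicate 1 was often the array nearest to the panicle level. It was the brightest of the 6 leaf arrays for 10 of the 23 genes higher in the panicle of both lines (43.5%), among them IAA2, IAA3, IAA14, IAA21, IAA30, PIN3a and ARF12. For all 6336 probe sets of that kind the share was 38.5%. It was also the dimmest leaf for 4 of the 6 genes lower in the panicle, where this held for 46.2% of 6793 probe sets. The marker lists did not share an order. Among leaves, this array had the highest means of leaf photosynthesis markers (12.41) and of anther, tapetum and pollen markers (4.36). Its meristem mean was the lowest (2.11), and its floral organ mean of 3.72 was within the leaf range. Within the photosynthesis list, PORA was the brightest of the leaves on this array (12.84), while GLK1 (10.28) and GLK2 (11.69) were the dimmest. The part of tissue content in these levels was not tested. Without this array, 34 members were called in IL50-7, where 46.9% of all probe sets were. Between the lines in leaves no member was called without it. Of all probe sets, 84 (0.245%) were called there, against 25 (0.0729%) with the array.

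The 4 members that did not pass the filter, IAA16, IAA26, PIN2 and GH3.6, were below background on most arrays. PIN2, a carrier known from roots, was below it on all 12, with means of 2.99 in IL50-7 panicles, 2.59 in IL50-7 leaves, 1.24 in KMR3 panicles and 1.13 in KMR3 leaves. IAA16 was below it on all 12 as well. GH3.6 was above background on leaf arrays only, 1 in IL50-7 and 2 in KMR3, and IAA26 on 1 KMR3 leaf array.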

How the data were processed

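Per the labels' protocols, biotin-labelled cRNA made from total RNA was hybridised to Affymetrix arrays with 1 colour. The authors deposited a table of linear intensity values, between 0.01 and 21276, with 57381 probe sets on 12 arrays. The submitters' processing notes name GCOS 1.2 and give it no role. How the intensities were summarised, scaled and background-corrected is not given in the sources used here.

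Intensities were log2 transformed, quantile normalised with control probe sets included, and floored at the 10th percentile. The 187 control probe sets were then left out, and the 34316 probe sets with a mean above the 40th percentile were tested. Where all 3 arrays of the dimmer group lay below background, a fold is a lower bound against it. No fold is given where only some arrays of that group did and its mean was below. Probe sets were named through the platform annotation and RefSeq (assembly ASM3414082v1), which served for names, chromosomes and neighbours only. Probe sets of several genes were not used.

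Differences were tested with limma 3.58.1 (R 4.3.3), with 4 group means over the 12 arrays (8 residual and 3.22 prior degrees of freedom), a prior variance that follows intensity, and Benjamini-Hochberg adjustment. The fit was tested on simulated data. Members, lists and named genes were chosen with earlier results of these data known. The rule for arrays against their labels was chosen after seeing the data, as were the counts of array pairs. Every member is named. Levels on each array are given for up to 5 members a family, called in both lines and with the largest mean organ difference, and for the 2 members with the smallest p in each line comparison without a call. Alternatives covered normalisation, filter, floor, variance prior, array weights, a replicate block, a fold minimum, gene means and left-out arrays. No 2 arrays held identical values, and the number of arrays limits the precision.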

Additional observations from a re-analysis of the deposited data

How the results depend on the processing

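Over 25 alternatives the number of auxin response genes called between panicle and leaf lay between 30 and 39 in IL50-7 (main count 36) and between 27 and 35 in KMR3 (main count 30). With single arrays left out it lay between 31 and 35 in IL50-7 and between 28 and 33 in KMR3. Of all probe sets, between 37.6% and 46.9% were called there in IL50-7 and between 39.9% and 49.6% in KMR3. From no filter to the filter at the 60th percentile, the share of all probe sets called went from 26.6% to 59.1% in IL50-7. In KMR3 it went from 28.2% to 60.3%, while the members tested fell from 57 to 44. No member was called between the lines in panicles under any alternative. The same held for the line difference in panicles minus that in leaves. In leaves the count was 0 except without KMR3 leaf replicate 3, where it was 1, GH3.8 (left-out range 0 to 1). The members given per array for organ differences were picked as called in both lines with the largest differences. IL50-7 calls near the threshold, such as IAA1, IAA12 and GH3.2, are therefore not in the tally that follows. Of the 36 organ results of members given per array, 34 stayed on the same side of the threshold under all alternatives run, and no value reversed. The exceptions were both GH3.5. In KMR3 it was not called on the deposited scale (-0.70) or with equal array medians (-0.86). In IL50-7 it was not called under 9 alternatives, with values between -0.54 and -0.89 in those. Deviations of same-numbered panicle arrays of the 2 lines correlated at -0.328, 0.400 and -0.248, and those of leaf arrays at 0.018, -0.127 and 0.116. Between panicle and leaf they correlated at 0.146, -0.054 and 0.131 in IL50-7 and at 0.003, -0.010 and -0.036 in KMR3. Because 2 panicle arrays went against their line labels, these values cannot decide whether the replicate numbers pair the samples. With the replicate block 35 members were called in IL50-7 and 32 in KMR3, where 44.5% and 46.3% of all probe sets were. In each line comparison 0 members were called with it, where 0.0495% of all probe sets were called in leaves and 0.00% in panicles. On the deposited scale the median of all probe sets was 0.15 for the organ difference in IL50-7 and 0.31 in KMR3. Dim leaf levels limit the folds: for IAA14, GH3.1 and PIN5c they are lower bounds in both lines.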

Other observations

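Other genes of the auxin pathway, a list chosen by symbol, had 22 genes on the array and 20 tested. Between panicle and leaf 7 were called in IL50-7, 4 higher and 3 lower, and 9 in KMR3, 6 higher and 3 lower, which is 35.0% and 45.0% where 45.6% and 47.5% of all probe sets were called. None was called between the lines. DAO, the dioxygenase that oxidises auxin and is needed for anther opening and fertile pollen in rice, had the largest difference of the list. Its mean was 11.29 in IL50-7 panicles and 7.06 in IL50-7 leaves, 18.8-fold higher in the panicle, and 11.06 in KMR3 panicles and 6.87 in KMR3 leaves, 18.3-fold higher (limma, adjusted p = 3.06e-05 and 3.33e-05).

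The co-repressor gene TPR2 was 2.91-fold higher in the IL50-7 panicle and 2.56-fold higher in that of KMR3 (limma, adjusted p = 6.44e-05 and 0.000163), while TPR3 was not called. RUB1 and RUB2 encode the small protein that is attached to the cullin of the auxin receptor complex. RUB2 was higher in the panicle, by 2.36-fold in IL50-7 and 1.87-fold in KMR3, and RUB1 was lower, by 1.78-fold and 1.88-fold. SMOS1, an auxin-regulated factor of organ size, was higher in both panicles. ILL5, named as a hydrolase of auxin conjugates, was lower in both (-1.08 in IL50-7 and -1.13 in KMR3), and ILL7 was called lower in IL50-7 (-0.69; limma, adjusted p = 0.0113) and had -0.42 in KMR3 (adjusted p = 0.0868), with the difference between the lines not called (adjusted p = 1). The kinase gene PID and the tiller angle gene LA1 were called higher in the KMR3 panicle only, and the difference between the lines was not called for either (limma, adjusted p = 1). The synthesis genes FIB and YUCCA1 were not called. By their RefSeq synonyms, LAX1 is the bHLH gene of panicle branching and CRL4 the receptor kinase gene CHARK, so these name matches stand apart from auxin import and trafficking. CRL4 is 1 of the 3 lower genes in KMR3, and LAX1 was not called.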
